A study of Homo sapiens with 6 samples.

Results

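The 35 genes described here encode the histone deacetylases, the lysine acetyltransferases outside the BRPF complexes with their scaffold proteins, and the ING and BET proteins that read histone marks. They were taken by name from the deposited count table: each of the 35 symbols matched 1 row, out of 58395 rows in all, and each of the 35 passed the low-count filter. RNA was sequenced from H1, an established human embryonic stem cell line derived from a blastocyst, in 6 libraries. The labels name 2 wild-type libraries (WT), 2 libraries of a BRPF1 knockout set called KO 1# and 2 of a BRPF1 knockout set called KO 2#, all given as hESCs of the H1 line. BRPF1 is the scaffold subunit of the MOZ and MORF acetyltransferase complexes, and the study compared wild-type and BRPF1 knockout stem cells. What 1# and 2# mean, where BRPF1 was edited and whether replicates were separate cultures is not in the labels, so the p-values may measure only technical spread between these libraries.

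Acetylation of lysines on histone tails loosens chromatin and is laid down by acetyltransferases, which work inside large complexes such as SAGA, TIP60 and HBO1. Zinc-dependent histone deacetylases (classes I, IIa, IIb and IV) and the NAD-dependent sirtuins take the mark off, and bromodomain proteins bind it. The class I enzymes HDAC1, HDAC2 and HDAC3 work in the SIN3, NuRD, CoREST and NCOR corepressors. Several of these corepressors are known for roles in keeping or leaving the pluripotent state.

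Libraries held 33421785 to 38098779 counts. The knockout libraries went against their cell type label. Summed over 15 pluripotency markers, the level was 7126 to 7316 CPM in WT and 42.3 to 66.5 CPM in the knockout libraries, where all 15 fell and PRDM14 and UTF1 were at 0. CPM here are normalised counts, scaled to a common library size by TMM, a method that assumes most genes do not differ. Over 16 fibroblast markers the sum was 909 to 944 CPM in WT, with LUM and FAP at 0, and 211242 to 231671 CPM in the knockout libraries. All 16 rose by TMM, and 15 did by each other scaling, the exception being THY1. The 15 cell division markers all fell, from sums of 2461 to 2488 CPM to 245 to 336 CPM. By TMM 3 of 4 tested neural markers rose and 1 fell, and 4 of 5 endoderm and trophoblast markers rose and 0 fell. Of 5 blood and endothelium markers 2 rose and 1 fell (background 35.8% higher and 41.4% lower). In the same order, library totals gave 1 and 2, 4 and 1, and 1 and 1 (background 21.9% and 59.9%). Leaving the 20 most abundant genes out of the totals gave 1 and 2, 4 and 0, and 1 and 1 (background 27.7% and 51.6%). The summed levels of these lists were 183 to 209.8, 4.0 to 5.30 and 113 to 114 CPM in WT. In the knockout libraries they were 212 to 232, 128 to 155 and 12.7 to 25.5 CPM. BRPF1 itself stood at 28.4 and 23.1 CPM in WT, 32.2 and 27.9 CPM in KO 1#, and 25.4 and 23.6 CPM in KO 2# (adjusted p = 0.508, log2 fold change 0.08). Its RNA was thus not called lower in the libraries labelled knockout, and since the place of the edit is not given, this level does not check the labels. Because genotype and these marker levels differ together in every library, what follows from loss of BRPF1 and what follows from the change of cell state cannot be told apart for any gene below. In bulk RNA, fewer cells of a type and less RNA per cell cannot be told apart either.

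Of the 35 genes, 9 rose, 16 fell and 10 did not pass the test when the mean over both knockout sets was compared with WT (edgeR quasi-likelihood test, Benjamini-Hochberg adjusted p below 0.05 over 19660 genes). Among all genes tested 77.3% were called, 35.8% higher and 41.4% lower, so the members' shares are near the background. Most members changed little. The middle 50% of members lay between log2 fold changes of -0.71 and 0.25, and that of all genes between -1.41 and 0.98. Only 10 members (28.6%) differed by at least 1 log2 unit, against 55.3% of all genes tested. Small changes were not particular to the members. In the 11 lists of partner genes described further on, the number that differed by that much ranged from 0 of 22 SAGA and ATAC genes, over 4 of 16 SIN3 and 3 of 11 TIP60 genes, to 7 of 14 genes of acetyl-CoA and NAD supply. Of the 10 members 4 were called higher (background 23.3%) and 6 lower (background 28.7%). The 4 were KAT2B, SIRT2, HDAC6 and HDAC8, and the 6 were SIRT1, JADE3, JADE2, HDAC2, BRD3 and ING1.

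In KO 1# against WT 8 members rose and 13 fell (background 35% and 38.7%, or 73.6% in either direction), and in KO 2# against WT 8 rose and 15 fell (background 34.6% and 39.1%, or 73.7% in either direction). Both comparisons use the same WT libraries. In both, 7 members rose (background 32.6%) and 13 fell (background 35.7%). In 9 members every knockout library lay above both WT libraries (background 37.2%), in 16 every knockout library lay below (background 43.3%), and in 10 the groups overlapped. The median log2 fold change of the members was -0.19 and that of all genes tested -0.13.

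The split depends on how libraries are scaled. The 10 most abundant genes held 6.11 to 6.3% of the counts in WT and 21.6 to 22.7% in the knockout libraries. The median of all genes was -0.13 by TMM, -0.18 by DESeq2 size factors, -0.53 with the 20 most abundant genes left out of the totals and -0.86 by library totals. In the same order 9, 9, 5 and 4 members rose and 16, 17, 23 and 29 fell. Over all genes tested 35.8%, 34.8%, 27.7% and 21.9% were called higher and 41.4%, 42.7%, 51.6% and 59.9% lower. By library totals 3 members rose and 28 fell in KO 1#, and 4 rose and 28 fell in KO 2# (background 21.7% and 56.4%, and 20.7% and 58.2%). Without the 20 most abundant genes these were 5 and 21, and 4 and 22 (background 27.1% and 48.1%, and 26.4% and 49.7%). KAT2B, SIRT2, HDAC6 and HDAC8 rose, and the same 16 members fell, under each of the 4 scalings. CREBBP, SIRT6, EPC1 and EPC2 rose by TMM but had a negative log2 fold change by library totals. The rise of HDAC10 by TMM was not called by library totals, nor without the 20 most abundant genes.

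**Figure D1:**
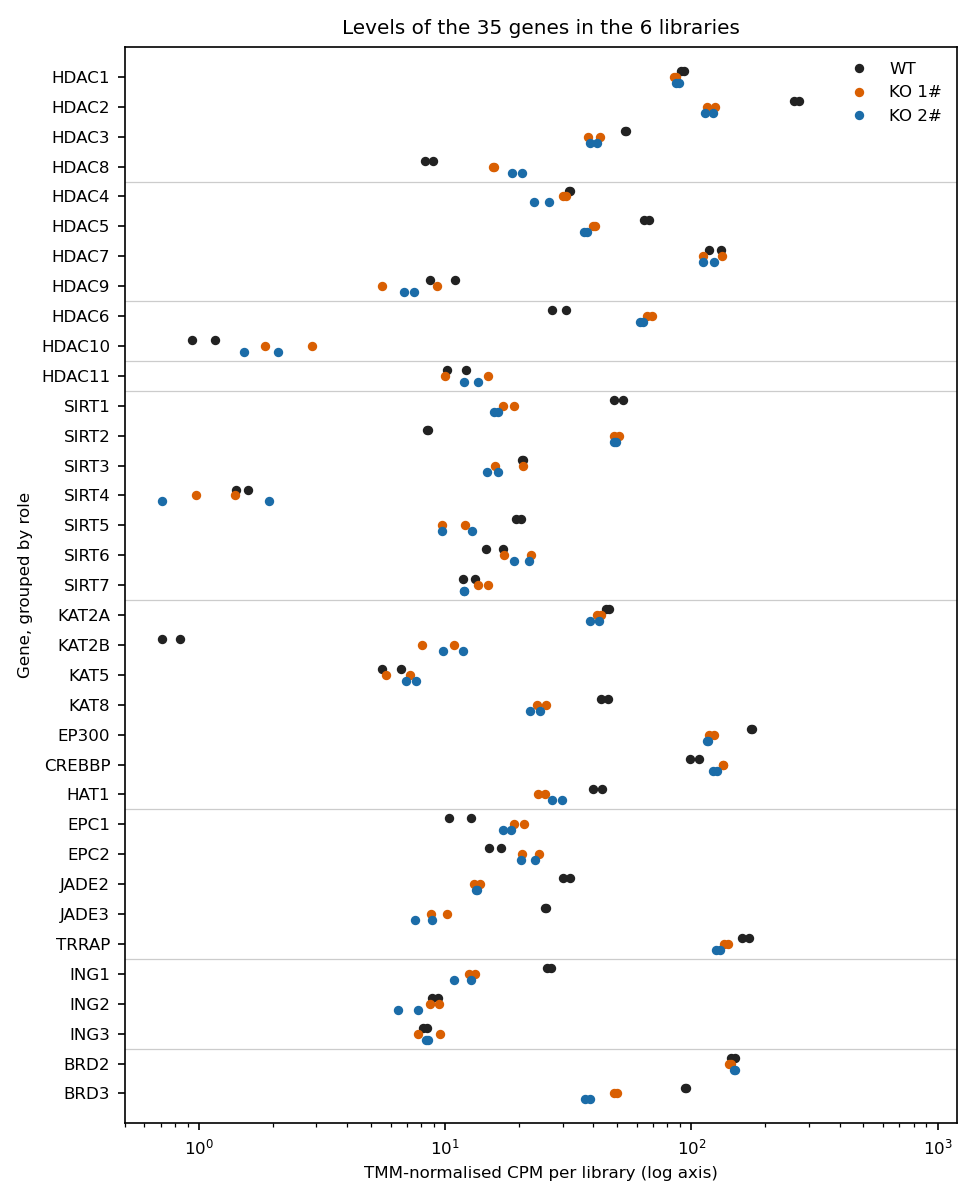
TMM-normalised CPM on a log axis (x) of the 35 genes (y, grouped by role) in each library, with black points for the 2 WT, orange for the 2 KO 1# and blue for the 2 KO 2# libraries. KAT2B and SIRT2 lie to the right of WT in all 4 knockout libraries, and SIRT1, JADE3, HDAC2 and BRD3 to the left.

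**Figure D2:**
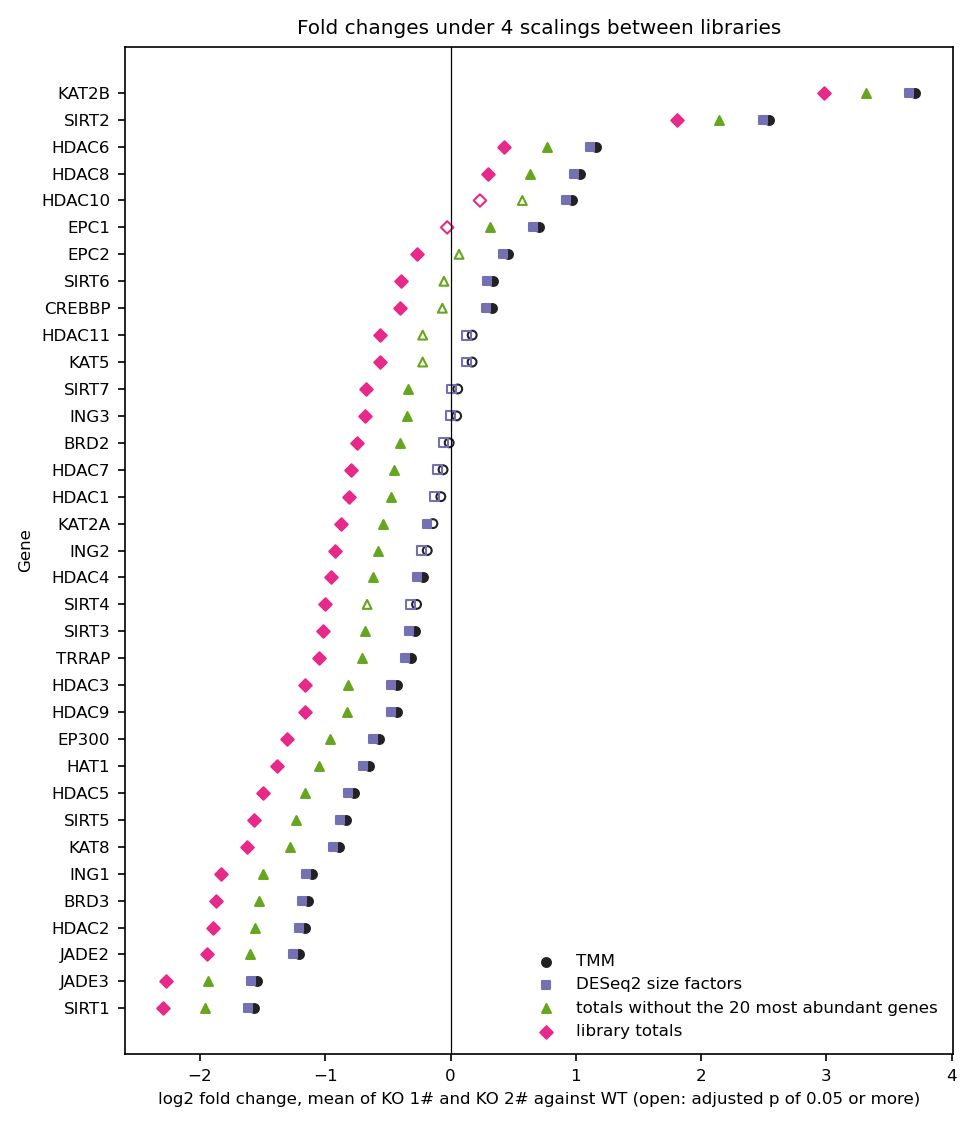
Log2 fold change against WT of the mean over both knockout sets (x) for each of the 35 genes (y, ordered by the TMM value) under 4 scalings, with filled symbols where the adjusted p was below 0.05. Library totals move every gene to lower values, and CREBBP, SIRT6, EPC1 and EPC2 cross 0 between TMM and library totals.

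The promoters of 4 of the 6 members that fell by at least 1 log2 unit are shown, as those whose window before the start lies largely clear of annotated exons. Each is the part of the 250 bases before a RefSeq start that no exon covers (RefSeq, GRCh38.p14). The start used is the one listed first for the gene, which need not be the most upstream. The BRD3 window lies inside the annotated gene. Among the windows counted below so do those of HDAC2, HDAC4, HDAC6, HDAC7, HDAC8, HDAC9, HDAC11, KAT2B, KAT5, EP300, EPC2 and ING2. Several other windows overlap their gene in part. The counted windows of HDAC8, HDAC10, KAT2B, KAT5 and EP300 held 0 bases clear of exons. SIRT1 is chr10:67884406-67884655 on the + strand, JADE2 chr5:134523759-134524008 on the + strand, JADE3 chrX:46912051-46912275 on the + strand and BRD3 chr9:134068027-134068276 on the - strand. Capitals mark the GC box (GGGCGG or CCGCCC) and the E-box (CACGTG), searched on both strands, with overlapping matches counted.
SIRT1: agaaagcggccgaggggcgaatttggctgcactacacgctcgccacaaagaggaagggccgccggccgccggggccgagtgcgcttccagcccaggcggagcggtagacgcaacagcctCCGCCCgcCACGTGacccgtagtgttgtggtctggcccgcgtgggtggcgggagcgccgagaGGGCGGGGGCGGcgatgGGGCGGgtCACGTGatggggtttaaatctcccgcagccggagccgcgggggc
JADE2: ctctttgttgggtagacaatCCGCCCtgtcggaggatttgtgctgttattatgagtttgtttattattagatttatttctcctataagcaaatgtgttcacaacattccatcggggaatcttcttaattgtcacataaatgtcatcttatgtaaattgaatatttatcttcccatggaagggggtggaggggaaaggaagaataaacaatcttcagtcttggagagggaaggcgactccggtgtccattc
JADE3: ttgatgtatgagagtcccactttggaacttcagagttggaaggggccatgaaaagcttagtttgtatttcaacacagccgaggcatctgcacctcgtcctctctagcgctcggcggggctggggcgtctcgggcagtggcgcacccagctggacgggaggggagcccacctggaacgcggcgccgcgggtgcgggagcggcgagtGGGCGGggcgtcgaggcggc
BRD3: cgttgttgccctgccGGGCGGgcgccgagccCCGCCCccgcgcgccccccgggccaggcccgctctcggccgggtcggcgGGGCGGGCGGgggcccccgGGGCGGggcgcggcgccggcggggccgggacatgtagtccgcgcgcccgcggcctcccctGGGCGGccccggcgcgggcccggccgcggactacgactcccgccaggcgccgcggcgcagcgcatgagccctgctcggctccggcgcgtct
The 4 windows differ in make-up. BRD3 has 6 GC boxes and 86.8% G and C, and SIRT1 has 4 GC boxes, 2 E-boxes and 72.0% G and C. JADE3 has 1 GC box and 67.6% over its full window, and JADE2 has 1 GC box and 39.6%. Among the 30 members found in the RefSeq promoter table, 18 (60%) held a GC box, against 42.6% of all 35116 promoters. The members count a single window per gene. The 35116 are all full-length entries, not limited to a single entry per gene or to genes tested here, so the sets are unlike. A GC box stood in 6 of the 9 members that rose by TMM and in 8 of the 13 that fell and had a promoter in the table. The E-box was found in 2 (6.67%, against 6.34%), and the CCAAT box (CCAAT or ATTGG) in 8 (26.7%, against 32.0%). TATAAA, read on both strands, was found in 0 (against 10.7%). The members' windows held a median of 69.6% G and C and 24 CpG dinucleotides, and all promoters 58.0% and 11. A match is a run of letters in this window and not a shown binding site.

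Among the class I deacetylases HDAC2 fell, HDAC3 fell less, HDAC8 rose and HDAC1 did not pass the test. HDAC1 and HDAC2 are near-identical catalytic subunits shared by the SIN3, NuRD and CoREST complexes. HDAC2 (chr6:113933028-114011308, - strand, GRCh38) stood at 261 and 274 CPM in WT, 116 and 125 CPM in KO 1#, and 114 and 123 CPM in KO 2#. The 4 knockout libraries lay close together and far below both WT libraries, and the level fell by 1.16 on the log2 scale (adjusted p = 2.86e-12, SE 0.06), 2.24-fold lower. HDAC1 (chr1:32292086-32333635, + strand) stood at 93.1 and 90.4 CPM in WT, 86.8 and 85 CPM in KO 1#, and 89.3 and 86.8 CPM in KO 2#. All knockout values were below WT, but by 0.08 log2 units only (adjusted p = 0.262, SE 0.06). By library totals HDAC1 was called lower at -0.81, which is close to the median of all genes on that scale. The 2 processed copies of HDAC1 in the table held at most 17 counts in any library.

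HDAC3, the enzyme of the NCOR corepressor, stood at 54.1 and 54.0 CPM in WT, 42.6 and 37.9 CPM in KO 1#, and 41.6 and 38.9 CPM in KO 2#. It fell by 0.43 (adjusted p = 6.66e-05, SE 0.08), to nearly equal means in both knockout sets. HDAC8 (chrX:72329516-72573199, - strand), which deacetylates the cohesin subunit SMC3, stood at 8.30 and 8.92 CPM in WT, 15.9 and 15.7 CPM in KO 1#, and 20.5 and 18.7 CPM in KO 2#. Both KO 2# libraries lay above both KO 1# libraries and all 4 above WT, with a log2 fold change of 1.03 (adjusted p = 3.18e-07, SE 0.12).

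Of the 4 class IIa deacetylases 3 fell and 0 rose by TMM (background 41.4% lower and 35.8% higher). These enzymes bind MEF2 transcription factors and move between nucleus and cytoplasm when kinases tag them for 14-3-3 proteins. HDAC5 (chr17:44076746-44123702, - strand) stood at 67.3 and 64.2 CPM in WT, 40.5 and 39.9 CPM in KO 1#, and 36.5 and 37.7 CPM in KO 2#. It fell by 0.77 (adjusted p = 1.62e-08, SE 0.07) with no overlap between groups. HDAC7, the most abundant class IIa member per kb of exon, stood at 132 and 118 CPM in WT, 133 and 111 CPM in KO 1#, and 123 and 112 CPM in KO 2#. Its groups overlapped fully (adjusted p = 0.488, log2 fold change -0.06), and the sign changed when WT replicate 1 or KO 1# replicate 2 was left out. HDAC4 fell by 0.22 (adjusted p = 0.0297, SE 0.09), from 32.1 and 31.8 CPM in WT to 30.1 and 31.0 in KO 1# and 26.3 and 22.9 in KO 2#. Only the KO 2# comparison passed the test for HDAC4 (-0.38, adjusted p = 0.00344, against -0.07, adjusted p = 0.576, in KO 1#). HDAC9 stood at 8.68 and 10.9 CPM in WT and ranged from 5.54 to 9.24 CPM in the knockout libraries. It fell by 0.43 (adjusted p = 0.0386, SE 0.18), the groups overlapped, neither knockout set passed alone, and the call was lost with DESeq2 (adjusted p = 0.0640). The calls of HDAC4 and HDAC9 were each lost when any of 3 libraries was left out: for HDAC4 WT replicate 1, WT replicate 2 or KO 2# replicate 2 (adjusted p = 0.0964 to 0.146), and for HDAC9 WT replicate 2, KO 1# replicate 1 or KO 2# replicate 1 (adjusted p = 0.0611 to 0.332).

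Both class IIb deacetylases rose by TMM, HDAC6 under every scaling and HDAC10 only by TMM and DESeq2 size factors. HDAC6 (chrX:48801377-48824982, + strand), a mainly cytoplasmic enzyme that deacetylates tubulin, stood at 31.0 and 27.2 CPM in WT, 69.3 and 66 CPM in KO 1#, and 61.9 and 63.8 CPM in KO 2#. Each knockout library was well above WT, with a log2 fold change of 1.16 (adjusted p = 2.81e-10, SE 0.08), 2.24-fold higher. HDAC10, which acts on acetylated polyamines, was near the bottom of detection with 61 and 45 counts in WT, 90 and 61 counts in KO 1#, and 58 and 45 counts in KO 2#. Its log2 fold change was 0.97 (adjusted p = 0.0185, SE 0.35), and only KO 1# passed alone. That call was lost without WT replicate 1, WT replicate 2 or KO 1# replicate 1 (adjusted p = 0.0538 to 0.144). MAPK12, on the same strand, covers 55.8% of the exons of HDAC10, held 946 to 2221 counts and rose by 1.65 log2 units, so reads of HDAC10 and MAPK12 may not be told apart. HDAC11, the single class IV enzyme, stood at 12.2 and 10.2 CPM in WT and at 9.94 to 15 CPM in the knockout libraries, which overlapped WT (adjusted p = 0.314, log2 fold change 0.17). Its log2 fold change had the opposite sign by library totals, at -0.56, and without the 20 most abundant genes, at -0.22.

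Among the sirtuins SIRT1 fell and SIRT2 rose, each under all 4 scalings. SIRT1 (chr10:67884669-67918390, + strand), a mainly nuclear sirtuin, stood at 48.4 and 52.8 CPM in WT, 17.1 and 19.1 CPM in KO 1#, and 16.4 and 15.8 CPM in KO 2#. The gap between WT and the knockout libraries was many times the spread within either, and SIRT1 fell by 1.57 (adjusted p = 1.34e-11, SE 0.09), 2.96-fold lower. SIRT2 (chr19:38878555-38899862, - strand), a mainly cytoplasmic sirtuin that deacetylates tubulin as HDAC6 does, stood at 8.43 and 8.52 CPM in WT, 51.0 and 48.5 CPM in KO 1#, and 48.6 and 49.4 CPM in KO 2#. The 4 knockout libraries lay within a narrow band and the log2 fold change was 2.54 (adjusted p = 2.57e-14, SE 0.09), 5.82-fold higher. Per kb of merged exon SIRT1 went from rank 9 to rank 19 among the 35 genes and SIRT2 from rank 29 to rank 8. Per kb of coding sequence the ranks went from 10 to 26 and from 27 to 5.

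Of the mitochondrial sirtuins, SIRT5 and SIRT3 fell and SIRT4 did not pass the test. SIRT5, which removes succinyl groups, stood at 19.4 and 20.3 CPM in WT, 9.74 and 12.1 CPM in KO 1#, and 9.67 and 12.9 CPM in KO 2#. It fell by 0.84 (adjusted p = 1.24e-05, SE 0.13) without overlap. SIRT3, the main mitochondrial deacetylase, stood at 20.7 and 20.5 CPM in WT, 20.7 and 15.9 CPM in KO 1#, and 14.9 and 16.4 CPM in KO 2#. One KO 1# library lay at the WT level, and the fall of 0.28 (adjusted p = 0.0319, SE 0.11) rested on KO 2#, the only set that passed alone (adjusted p = 0.0138). Without WT replicate 1, WT replicate 2, KO 1# replicate 2 or KO 2# replicate 1 the adjusted p of SIRT3 was 0.0829 to 0.116. SIRT4 held only 21 to 83 counts per library and its groups overlapped (adjusted p = 0.545, log2 fold change -0.27).

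SIRT6, a chromatin-bound sirtuin, stood at 17.1 and 14.6 CPM in WT, 22.2 and 17.3 CPM in KO 1#, and 19.1 and 22.0 CPM in KO 2#. It rose by TMM, with a log2 fold change of 0.34 (adjusted p = 0.0177, SE 0.12), but had the opposite sign by library totals (-0.39) and without the 20 most abundant genes (-0.05). The call was also lost with DESeq2 (adjusted p = 0.0741) and on leaving out WT replicate 2 (adjusted p = 0.189) or KO 2# replicate 2 (adjusted p = 0.0514). SIRT7, the nucleolar sirtuin, overlapped between groups, at 13.2 and 11.8 CPM in WT and 11.9 to 15 CPM in the knockout libraries (adjusted p = 0.671, log2 fold change 0.06, and -0.68 by library totals).

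**Figure D3:**
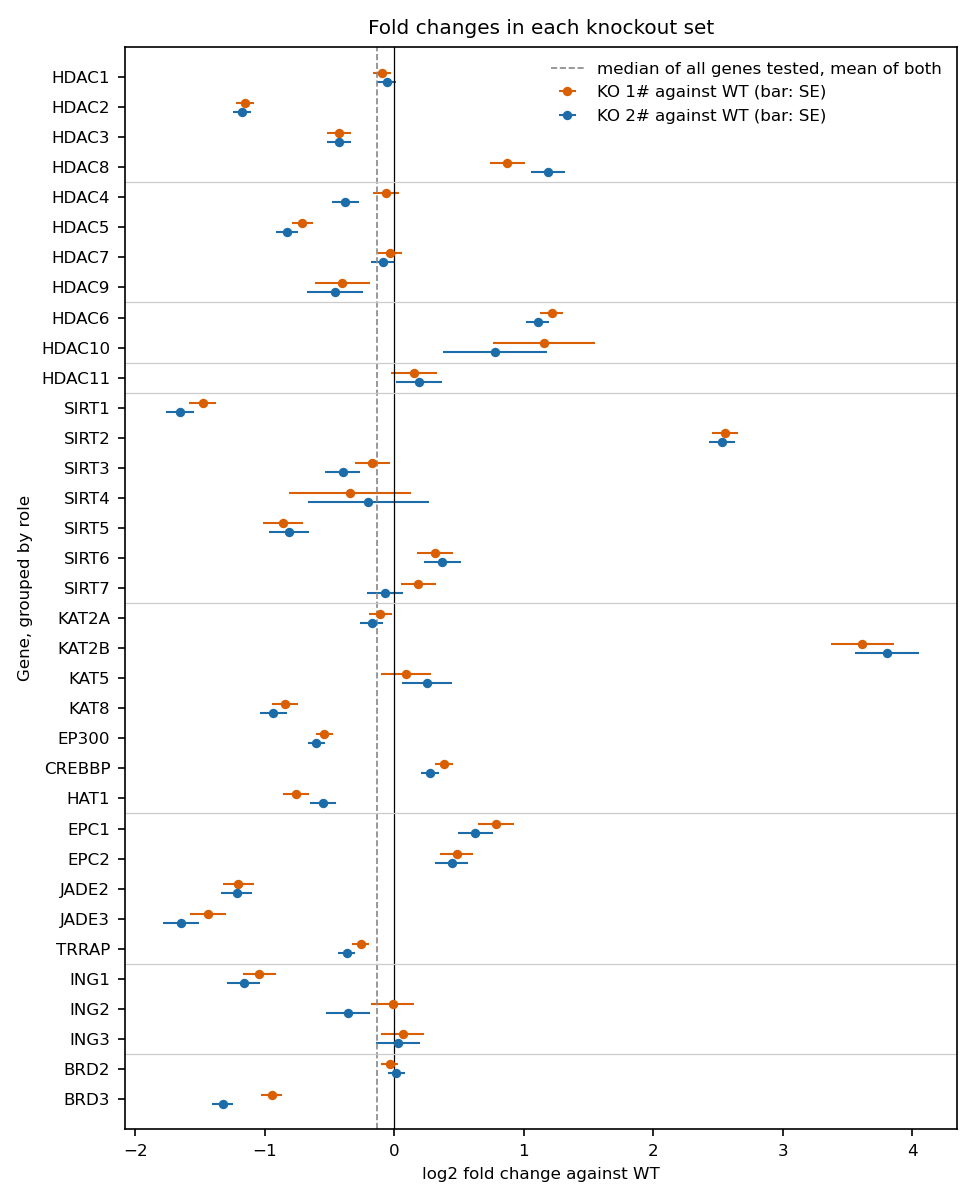
Log2 fold change against WT by TMM (x) of KO 1# (orange) and KO 2# (blue) for the 35 genes (y, grouped by role), with bars for the standard error and a dashed line at the median of all genes tested, -0.13. Both knockout sets lie on the same side of 0 for each gene that passed the test in both, with SIRT2 and KAT2B farthest to the right.

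Among the acetyltransferases KAT2B rose from a low level and KAT8, HAT1 and EP300 fell. KAT2A (GCN5) and KAT2B (PCAF) are alternative catalytic subunits of the SAGA and ATAC complexes. KAT2B (chr3:20040023-20154404, + strand) stood at 0.707 and 0.833 CPM in WT, from 37 and 40 counts, at 8.02 and 10.9 CPM in KO 1#, and at 11.8 and 9.81 CPM in KO 2#. Every knockout library was far above WT, with a log2 fold change of 3.71 (adjusted p = 6.50e-11, SE 0.23), 13.1-fold higher, the largest change among the 35 genes. Of all genes tested 94.0% had a lower log2 fold change than KAT2B. KAT2A (chr17:42113108-42121358, - strand) stood at 46.4 and 44.8 CPM in WT, 41.5 and 43.0 CPM in KO 1#, and 42.1 and 38.8 CPM in KO 2#. All knockout values lay below WT, but the log2 fold change of -0.14 (SE 0.08) did not pass by TMM (adjusted p = 0.0990). It was called lower by DESeq2 size factors (-0.19, adjusted p = 0.0304) and by library totals (-0.87).

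EP300 and CREBBP, paired coactivators that acetylate histones at enhancers, moved in opposite directions by TMM. EP300 (chr22:41091786-41180079, + strand) stood at 177 and 175 CPM in WT, 118 and 124 CPM in KO 1#, and 116 and 116 CPM in KO 2#. It fell by 0.57 (adjusted p = 4.62e-08, SE 0.06), 1.49-fold lower. CREBBP (chr16:3725054-3880726, - strand) stood at 107 and 98.8 CPM in WT, 134 and 134 CPM in KO 1#, and 127 and 122 CPM in KO 2#. It rose by TMM with a log2 fold change of 0.33 (adjusted p = 0.000115, SE 0.06), but took the opposite sign by library totals (-0.40) and without the 20 most abundant genes (-0.07).

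KAT8 (MOF, chr16:31115754-31131393, + strand), the histone H4 acetyltransferase of the MSL and NSL complexes, stood at 43.0 and 45.8 CPM in WT, 23.7 and 25.6 CPM in KO 1#, and 22.2 and 24.3 CPM in KO 2#. The level fell by 0.89 (adjusted p = 2.64e-08, SE 0.08), 1.85-fold lower, with the groups well apart. HAT1, which acetylates newly made histone H4 before it is built into chromatin, stood at 39.7 and 43.5 CPM in WT, 23.8 and 25.4 CPM in KO 1#, and 29.7 and 27.2 CPM in KO 2#. It fell by 0.65 (adjusted p = 1.67e-06, SE 0.08), and both KO 1# libraries lay below both KO 2# libraries. The part of the lower cell division markers in the fall of HAT1 was not tested. KAT5 (TIP60) stood at 5.56 and 6.64 CPM in WT and at 5.76 to 7.59 CPM in the knockout libraries, with overlap (adjusted p = 0.358, log2 fold change 0.17, and -0.56 by library totals). RNASEH2C, on the opposite strand, overlaps 38.6% of the exons of KAT5, and the strand setting of the counts is not known.

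All 5 scaffold genes passed the test by TMM, where 77.3% of all genes tested did. JADE2, JADE3 and TRRAP fell, and EPC1 and EPC2 rose, though by library totals both EPC genes had a negative log2 fold change. JADE proteins tie the acetyltransferase KAT7 (HBO1) to its ING subunit and can stand in for BRPF proteins in that role. JADE3 (chrX:46912276-47061242, + strand) stood at 25.7 and 25.5 CPM in WT, 10.2 and 8.76 CPM in KO 1#, and 7.54 and 8.80 CPM in KO 2#. It fell by 1.54 (adjusted p = 7.18e-10, SE 0.11), 2.91-fold lower. JADE2 (chr5:134524312-134583230, + strand) stood at 32.1 and 30.0 CPM in WT and at 13.1 to 13.9 CPM in the 4 knockout libraries. It fell by 1.21 (adjusted p = 2.25e-09, SE 0.10), 2.31-fold lower, with almost no spread among the knockout libraries.

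EPC1 and EPC2 are scaffolds of the TIP60 complex. EPC1 stood at 10.3 and 12.8 CPM in WT, 19.0 and 20.9 CPM in KO 1#, and 17.1 and 18.6 CPM in KO 2# (adjusted p = 3.91e-05, log2 fold change 0.71, SE 0.12, but -0.03 by library totals). EPC2 stood at 15.1 and 16.9 CPM in WT, 20.6 and 24.1 CPM in KO 1#, and 20.3 and 23.1 CPM in KO 2# (adjusted p = 0.00102, log2 fold change 0.46, SE 0.11, but -0.27 by library totals). Knockout and WT libraries of both genes did not overlap on the TMM scale. TRRAP, the large scaffold that SAGA and TIP60 share, stood at 171 and 161 CPM in WT, 136 and 141 CPM in KO 1#, and 126 and 131 CPM in KO 2#. It fell by 0.31 (adjusted p = 9.57e-05, SE 0.06).

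Among the readers BRD3 and ING1 fell, and BRD2, ING2 and ING3 did not pass the test. BRD2 and BRD3 are BET proteins, which bind acetylated histones through paired bromodomains. BRD3 (chr9:134030305-134068535, - strand) stood at 94.0 and 95.3 CPM in WT, 49.7 and 48.5 CPM in KO 1#, and 38.7 and 36.9 CPM in KO 2#. The groups formed 3 separate levels, and BRD3 fell by 1.14 in the mean of both sets (adjusted p = 2.18e-11, SE 0.07), 2.20-fold lower. BRD2 (chr6:32968660-32981505, + strand) stood at 150.2 and 145 CPM in WT, 146 and 143 CPM in KO 1#, and 149.8 and 149 CPM in KO 2#. Its log2 fold change was -0.01 (adjusted p = 0.869, SE 0.06), and by library totals it was called lower at -0.74, near the median of all genes on that scale.

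ING proteins read methylated histone H3 through a PHD finger. ING1 and ING2 serve the SIN3 complex and ING3 the TIP60 complex. ING1 (chr13:110712736-110723339, + strand) stood at 26.9 and 26.0 CPM in WT, 12.5 and 13.2 CPM in KO 1#, and 12.8 and 10.9 CPM in KO 2#. It fell by 1.10 (adjusted p = 2.63e-08, SE 0.10), 2.15-fold lower. ING2 overlapped between groups, at 9.39 and 8.85 CPM in WT and 6.41 to 9.42 CPM in the knockout libraries (adjusted p = 0.246, log2 fold change -0.19). ING3 did so too, at 8.11 and 8.42 CPM in WT and 7.77 to 9.52 CPM in the knockout libraries (adjusted p = 0.769, log2 fold change 0.05, and -0.68 by library totals).

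Related genes with overlapping roles were next compared as shares, which do not depend on the scaling between libraries. A share is the gene's level per kb of merged exon, as a percentage of the sum over its family. With 2 WT against 4 knockout libraries the exact permutation test cannot go below p = 0.133 (two-sided), and after adjustment over the 34 shares tested below 0.174. Of the 34 shares, 26 were at that smallest p, so the shares are read by their values.

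HDAC2 held 41.8 and 43.7% of the HDAC1 and HDAC2 sum in WT and 24.6 to 27.4% in the knockout libraries. Per kb of coding sequence its share was 73.7% in WT and 56.9% in the knockout libraries, so which of the pair was more abundant in the knockout libraries depends on the length used, while the drop of its share does not. EP300 held 67.2 and 68.7% of the EP300 and CREBBP sum in WT and 52.2 to 53.9% in the knockout libraries. KAT2B held 1.01 and 1.23% of the KAT2A and KAT2B sum in WT and 11.4 to 15.8% in the knockout libraries, so KAT2A kept the larger part in each library.

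SIRT1 made up 37.2 and 40.9% of the sirtuin sum in WT and 12.8 to 16.1% in the knockout libraries. SIRT2 made up 4.75 and 4.83% in WT and 28.2 to 29.9% in the knockout libraries. The most abundant sirtuin per kb of exon was thus SIRT1 in WT and SIRT2 in each knockout library. The lead was narrow in KO 2# replicate 2, where SIRT6 held 29.3% and SIRT2 29.5%. It was also narrow in KO 1# replicate 1, where SIRT6 held 27.5% and SIRT2 28.2%. Across all 11 zinc-dependent deacetylases HDAC2 went from 21.2% ± 1.16 (SD, n = 2) to 11.4% ± 0.809 (SD, n = 4), and HDAC6 from 3.36% ± 0.241 (SD, n = 2) to 9.09% ± 0.374 (SD, n = 4). Within class IIa, HDAC5 went from 35.7% ± 0.652 (SD, n = 2) to 25.9% ± 1.36 (SD, n = 4) and HDAC7 from 52.0% ± 1.62 (SD, n = 2) to 61.4% ± 2.46 (SD, n = 4).

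Of the reader pairs, BRD3 held 40.0 and 41.2% of the BRD2 and BRD3 sum in WT, and 26.7 and 26.6% in KO 1#, with 21.6 and 20.9% in KO 2#. ING1 held 39.0 and 39.6% of the ING1 and ING2 sum in WT and 22.9 to 30.8% in the knockout libraries. None of these pairs overlapped between WT and knockout libraries. JADE3 went from 61.4% ± 1.02 (SD, n = 2) to 55.7% ± 2.63 (SD, n = 4) of the JADE2 and JADE3 sum, a smaller shift, as both genes fell. EPC1 went from 26.3% ± 1.41 (SD, n = 2) to 29.8% ± 1.20 (SD, n = 4) of the EPC1 and EPC2 sum.

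**Figure D4:**
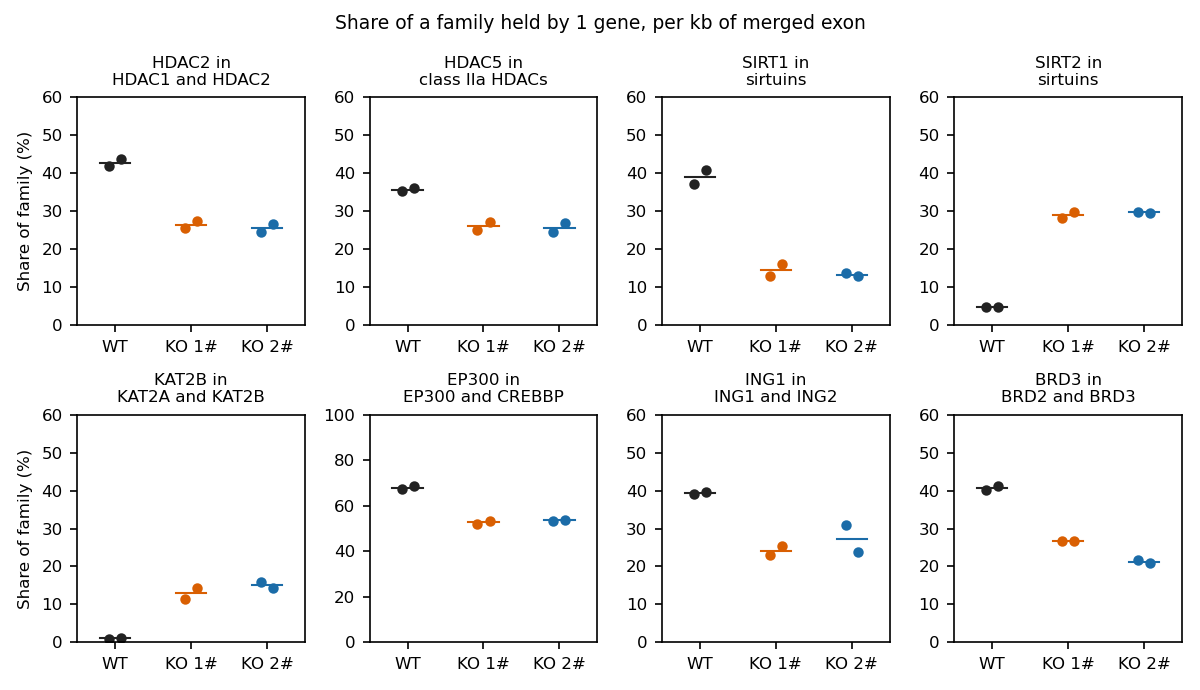
Share of a family (y, percent of the family's summed level per kb of merged exon) held by 1 gene in each panel, for the 2 WT, 2 KO 1# and 2 KO 2# libraries (points) with the group mean (line); the axis of the EP300 panel runs to 100, the others to 60. SIRT2 goes from under 5% to over 28% of the sirtuin sum, and SIRT1, HDAC2, EP300, ING1 and BRD3 hold smaller shares in every knockout library than in WT.

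Per kb of merged exon the most abundant members in WT were HDAC1 at 23.2, BRD2 at 20.1, HDAC2 at 17.3, EP300 at 14.1 and BRD3 at 13.8 CPM per kb. In the knockout libraries they were HDAC1 at 21.9, BRD2 at 20.002, HDAC7 at 12.1, KAT2A at 11 and EP300 at 9.48 CPM per kb. The merged exons of HDAC2 span 15461 bases, and per kb of coding sequence HDAC2 came first in both groups, at 178 CPM per kb in WT and 79.6 in the knockout libraries. HDAC1 and BRD2 followed it in both groups on that scale. KAT2B was the least abundant member in WT by either length, and HDAC10 in the knockout libraries.

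The genes that work with the members were counted from 11 lists, of which each gene had to pass the same test. The lists were written with earlier results of these data known, so their counts are descriptions, read against the background of 35.8% higher and 41.4% lower by TMM. The background was 34.8% and 42.7% by DESeq2 size factors, 21.9% and 59.9% by library totals, and 27.7% and 51.6% without the 20 most abundant genes.

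Of 16 SIN3 complex genes, which hold HDAC1 and HDAC2 with ING1 or ING2, 6 rose and 8 fell by TMM (median log2 fold change -0.25). By DESeq2 size factors 4 rose and 9 fell, by library totals 0 and 14, and without the 20 most abundant genes 0 and 10. SINHCAF, a SIN3 subunit known from embryonic stem cells, stood at 326 and 347 CPM in WT and 27.4 to 30.6 CPM in the knockout libraries (fell by 3.53, adjusted p = 7.19e-19). The histone-binding RBBP7 fell by 1.22, the scaffold SIN3A by 1.15 and SUDS3 by 1.07, each under every scaling.

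Of 12 NuRD genes 4 rose and 6 fell by TMM (median -0.09), and by library totals 3 and 9. SALL4, a stem cell factor that recruits the complex and is also in the pluripotency marker list, stood at 181 and 178 CPM in WT and 7.96 to 10.2 CPM in the knockout libraries (fell by 4.33). The remodeller CHD3 stood at 39.9 and 36.1 CPM in WT and 265 to 294 CPM in the knockout libraries, a log2 fold change of 2.86 (adjusted p = 7.83e-17). CHD5 fell by 3.62, from 107 and 154 counts to at most 16, and CDK2AP1 rose with a log2 fold change of 1.53. The third CHD remodeller of the list, CHD4, named after its values were seen, stood at 308 and 284 CPM in WT and 249 to 291 CPM in the knockout libraries, which overlapped WT, and fell by 0.13 (adjusted p = 0.0391). Only the KO 2# comparison passed the edgeR test for CHD4 (-0.21, adjusted p = 0.00626, against -0.05, adjusted p = 0.512, in KO 1#). In the mean of both sets CHD3 was called higher and CHD4 and CHD5 lower under each of the 4 scalings.

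Of 11 CoREST and MiDAC genes 4 rose and 5 fell by TMM (median -0.19), by library totals 0 and 8, and without the 20 most abundant genes 3 and 8. The scaffold RCOR2 fell by 2.30, TRERF1 by 2.01, the histone demethylase KDM1A by 1.17 and ZMYM2 by 0.99. KDM1A stood at 318 and 313 CPM in WT and at 134 to 147 CPM in the knockout libraries. Of 6 NCOR complex genes, the partners of HDAC3, 1 rose and 2 fell by TMM (median -0.10), and by library totals 1 and 4. CORO2A fell by 1.86 and TBL1X by 0.39. For TBL1X only the KO 2# comparison passed the edgeR test (-0.62, adjusted p = 1.46e-05, against -0.15, adjusted p = 0.156, in KO 1#).

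Of 22 SAGA and ATAC genes, the partners of KAT2A and KAT2B, 5 rose and 8 fell by TMM (median -0.07), by library totals 0 and 19, and without the 20 most abundant genes 3 and 17. TADA1 fell by 0.94 and KAT14 by 0.83, and TADA2B and SUPT7L had log2 fold changes of 0.95 and 0.90 by TMM, with calls that did not hold under every scaling. All 11 TIP60 genes passed the test by TMM, 3 higher and 8 lower (median -0.81), and 1 was higher and 8 lower by library totals. MBTD1 fell by 2.38, the ATPase RUVBL1 by 1.85, the YEATS reader YEATS4 by 1.65 and the ATPase RUVBL2 by 0.89. KAT5, the enzyme of this complex, did not pass the test.

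Of 10 MSL and NSL genes, the partners of KAT8, 4 rose and 5 fell by TMM (median -0.02), by library totals 1 and 8, and without the 20 most abundant genes 2 and 7. MSL2 fell by 1.03 and HCFC1 by 0.76, MSL3 rose under every scaling with a log2 fold change of 1.01, and MSL1 had 0.79 by TMM, a call that did not hold under every scaling. Of 10 MOZ, MORF and HBO1 genes 4 rose and 4 fell by TMM (median 0.06), by library totals 0 and 8, and without the 20 most abundant genes 1 and 6. KAT7, the enzyme that JADE2 and JADE3 serve, stood at 167 and 167 CPM in WT and 26.4 to 28.7 CPM in the knockout libraries and fell by 2.58 (adjusted p = 1.19e-16). JADE1 fell by 2.24, from 169 and 175 CPM to 33 to 40.8 CPM, so that all of JADE1, JADE2 and JADE3 fell. ING5 fell by 0.82, and ING4 and BRPF3 had log2 fold changes of 0.52 and 0.82 by TMM, with calls that did not hold under every scaling.

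Of 13 other bromodomain and YEATS readers tested, 3 rose and 9 fell by TMM (median -0.50), by library totals 0 and 12, and without the 20 most abundant genes 1 and 11. CECR2 stood at 153 and 147 CPM in WT, from 7077 to 8024 counts, and at 1 to 11 counts in the knockout libraries. ATAD2 fell by 2.02, PHIP by 1.64 and BRD7 by 1.12. PHIP fell less in KO 2# than in KO 1#, with a log2 fold change of 0.71 between them (edgeR adjusted p = 0.000842). In that comparison 2 genes of this list were higher and 1 lower in KO 2# (background 1.58% and 2.28%). BRDT, the testis BET gene, held at most 10 counts and was not tested.

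Of 14 genes that supply acetyl-CoA and NAD, the cosubstrates of acetyltransferases and sirtuins, 6 rose and 6 fell by TMM (median -0.07), by library totals 3 and 9, and without the 20 most abundant genes 6 and 8. NNMT, which methylates the NAD precursor nicotinamide, had 1 and 3 counts in WT and 6989 to 7634 counts in the knockout libraries. NMNAT2, an NAD-making enzyme, fell by 4.88, from 22.7 and 24.6 CPM to at most 1.05 CPM, and NMNAT3 fell by 3.97 and ACSS1 by 2.66, both from low counts. Of 12 tested partners of the class IIa enzymes 7 rose and 2 fell by TMM (median 0.86), by library totals 6 and 5, and without the 20 most abundant genes 7 and 4. MEF2C stood at 0.459 and 0.479 CPM in WT and 11.7 to 17.1 CPM in the knockout libraries, a log2 fold change of 4.91. The kinases SIK1 and CAMK2D and the factor MEF2D rose too, with log2 fold changes of 3.03, 2.28 and 2.03 under TMM and calls that held under every scaling.

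**Figure D5:**
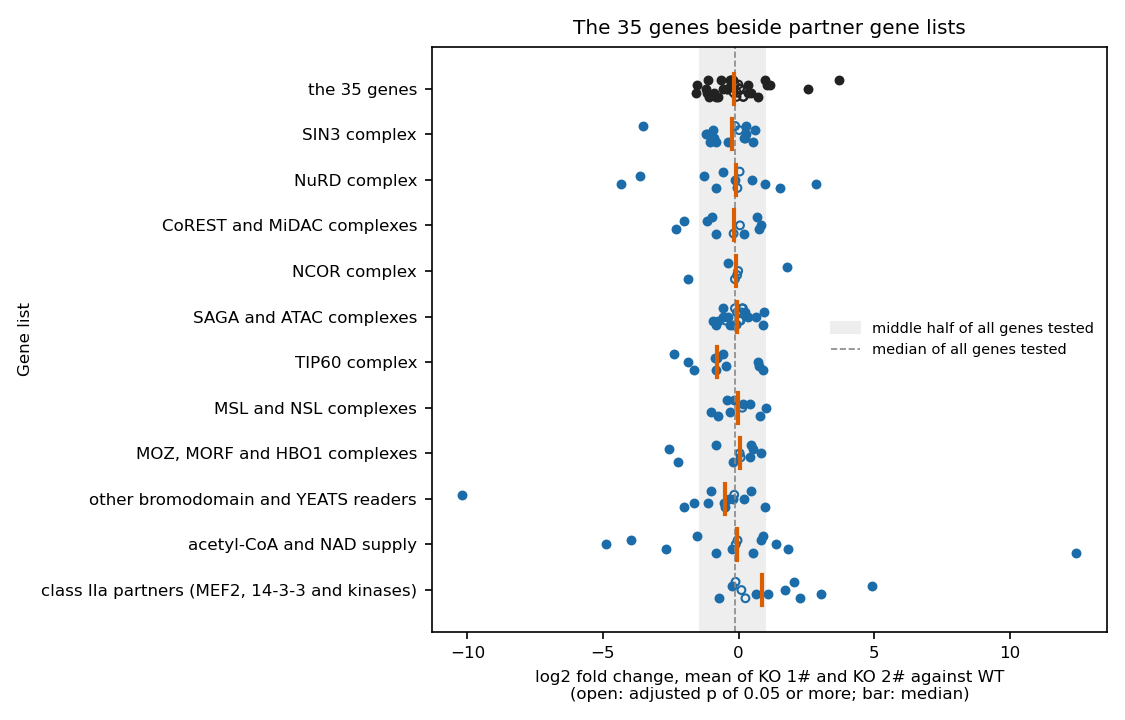
Log2 fold change against WT of the mean over both knockout sets by TMM (x) for the 35 genes (black) and the tested genes of 11 partner lists (blue), with orange bars at the list medians, open points at an adjusted p of 0.05 or more, and the middle 50% of all genes tested in grey. The 35 genes keep within -1.57 to 3.71, and CECR2 and NNMT lie farthest out among the partners.

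KO 2# and KO 1# were compared with each other to see whether the knockout sets differed. Of the 35 genes 0 were higher and 1 was lower in KO 2# (background 1.58% and 2.28%, or 3.86% in either direction). BRD3 had a log2 fold change of -0.38 in KO 2# against KO 1# (adjusted p = 0.0123, SE 0.08), at 37.8 CPM ± 1.32 (SD, n = 2) against 49.1 CPM ± 0.889 (SD, n = 2). It was lower under each of the 4 scalings, but the call was lost on leaving out KO 2# replicate 1 (adjusted p = 0.0653) or KO 2# replicate 2 (adjusted p = 0.191). In the same comparison 12 of 15 cell division markers were lower in KO 2#, and their part in the value of BRD3 was not tested. The other members lay between -0.38 and 0.31 log2 units, with HDAC10 lowest and HDAC8 highest, and did not pass the test. With the replicate number as a block HDAC4 was called lower too (-0.31, adjusted p = 0.0398), and the background then was 4.09% higher and 4.22% lower.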

How the data were processed

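The authors deposited 1 table of raw counts, with a column for each library and a row for each gene identifier. The submitters' processing notes name HISAT2 2.0.4, SAMtools 1.3.1, HTSeq 0.6.0, DESeq 1.18.1 and the build GRCh38, without saying what each tool did. Which annotation the authors counted on, and with which strand setting, is not given in the sources used here. Per the labels' protocols, RNA was extracted with Trizol and libraries were made with a TruSeq RNA kit. Positions and exon lengths came from GENCODE 29 (GRCh38), which holds 58275 of the 58395 identifiers.

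Counts were scaled by TMM and fitted with edgeR 4.0.16 (R 4.3.3) in 1 quasi-likelihood model of 3 groups over all 6 libraries, which leaves 3 residual degrees of freedom. Genes were kept by filterByExpr with a minimum count of 10. Tests were two-sided, with Benjamini-Hochberg adjustment over the 19660 genes and a threshold of 0.05. Standard errors (SE) derive from the F statistic, and standard deviations (SD) are over libraries. A test used simulated data with 18750 genes, for the mean of the knockout sets against WT. It recovered 91% of 2-fold and 100% of 4-fold changes and called 10 unchanged genes. Only 200 well-counted genes were changed in it, as many up as down. In the real data 77.3% of genes were called, so these rates need not hold here.

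All 35 members are named, and from each partner list up to 4 called genes by size of fold change, with BRPF1, KAT7, JADE1, ING4 and ING5 open to naming whatever their values. Some genes that this rule names are not reported here. The members, lists and rule were chosen with earlier results of these data known. Alternatives were DESeq2 size factors, library totals with and without the 20 most abundant genes, no count filter, a filter of 1 CPM in 2 libraries, DESeq2 1.42.0, limma-voom (limma 3.58.1), a replicate block and leaving out each library. Coding lengths and a limit of 1 log2 unit were added after the data were seen.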

Additional observations from a re-analysis of the deposited data

Results flagged for a closer look

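BRD3 differed between the knockout sets by a test of the difference itself, with a log2 fold change of -0.38 in KO 2# against KO 1# (edgeR adjusted p = 0.0123). Both KO 2# libraries, at 38.7 and 36.9 CPM, lay below both KO 1# libraries, at 49.7 and 48.5 CPM. Against WT, which both comparisons share, the log2 fold change was -0.95 in KO 1# and -1.32 in KO 2#. The difference was called with DESeq2 (adjusted p = 0.00181) and limma-voom (adjusted p = 0.0379) and was lost when either KO 2# library was left out.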

How the results depend on the processing

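Members were counted in the mean of both knockout sets against WT, in each set against WT and between the sets, and each member was tested in the mean. Without a count filter, with 1 CPM in 2 libraries and with limma-voom all 35 members kept direction and call in the mean comparison. With DESeq2 the calls of HDAC9 (adjusted p = 0.0640) and SIRT6 (adjusted p = 0.0741) were lost and KAT2A was called lower (adjusted p = 0.0381). By library totals 4 members rose and 29 fell in the mean, 3 and 28 in KO 1#, and 4 and 28 in KO 2#. Without the 20 most abundant genes 5 rose and 23 fell in the mean, and 5 rose and 21 fell in KO 1#. In KO 2# 4 rose and many more fell. The full counts and the backgrounds are given with the scalings further up. With a limit of 1 log2 unit 4 rose and 6 fell. By library totals the sign turned for HDAC11 (-0.56), SIRT6 (-0.39), SIRT7 (-0.68), KAT5 (-0.56), CREBBP (-0.40), EPC1 (-0.027), EPC2 (-0.27) and ING3 (-0.68). Without the 20 most abundant genes it turned for HDAC11 (-0.22), SIRT6 (-0.053), SIRT7 (-0.34), KAT5 (-0.22), CREBBP (-0.066) and ING3 (-0.35). These scalings lower every log2 fold change by construction. Each library was also left out in turn, which leaves a single library in its group and changes the number of genes tested. Over these omissions the log2 fold change crossed 0 for HDAC7 (-0.14 to 0.025), SIRT4 (-0.71 to 0.011), SIRT7 (-0.024 to 0.14), ING3 (-0.022 to 0.13) and BRD2 (-0.037 to 0.011), none of them called. Of 272 alternatives for the shares 13 turned the sign of the difference between knockout and WT. By coding length these were HDAC3 in class I (2.80 points), HDAC3 and HDAC9 in all 11 deacetylases (0.479 and 0.0318) and SIRT7 among the sirtuins (-0.374), and as a log2 ratio of counts without lengths HDAC3 in class I (0.29). Leaving out a library gave -0.436 to 0.250 points for HDAC3 in class I, -0.566 to 0.159 for HDAC9 in class IIa, -0.0328 to 0.269 for HDAC4 and -0.165 to 0.0185 for HDAC9 in all 11, and -1.27 to 0.0175 for SIRT4. Other causes were not tested.

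Replicate numbers are shared across groups, but nothing in the labels says that they mark a shared culture or day. Deviations of same-numbered libraries correlated at 0.342 (WT and KO 1#), 0.103 (WT and KO 2#) and 0.149 (both knockout sets) over 9682 genes. With the replicate block all 35 members kept their call in the mean comparison, and 2 were lower in KO 2# against KO 1#, BRD3 (adjusted p = 0.000298) and HDAC4 (adjusted p = 0.0398), where 4.22% of all genes were lower, against 2.28% without the block. Counting depth limits HDAC10, SIRT4 and, in WT, KAT2B, and 2 libraries per group limit every test.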

Other observations

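Some genes that overlap members moved in their own right, and they are given here as chosen after their values were seen. HDAC2-AS2, an antisense RNA that shares 69 bases (0.446%) of the exons of HDAC2, stood at 36.6 and 30.7 CPM in WT, from 1913 and 1472 counts, and at 7 to 23 counts in each knockout library. HDAC2 itself was 2.24-fold lower, a much smaller difference. BRD3OS, on the strand opposite to BRD3 and overlapping 18.6% of its exons, stood at 11 and 12.3 CPM in WT and 32.4 to 35.6 CPM in the knockout libraries, a log2 fold change of 1.54 (edgeR adjusted p = 1.37e-10). BRD3 fell while this neighbour rose. Since the strand setting of the counts is not known, how reads of the shared bases were counted is not known either. PSMD13, which overlaps 6.07% of the exons of SIRT3, differed little (log2 fold change 0.16, adjusted p = 0.0267).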
